A study of Rattus norvegicus with 36 samples.

Results

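Pdk4, Pdk2 and Ucp3 are 3 genes that bear on which fuel a muscle mitochondrion burns. They were followed in extraocular muscle (EOM), the group of small muscles that turns the eyeball, and in a leg sample of gastrocnemius and soleus from rats at postnatal days 0, 7, 14, 21, 28 and 45. The members were all probe sets that the platform annotation gave to 1 of these symbols and to no other, which were 5 of the 8799 probe sets on the Affymetrix RG-U34A array, for 3 of the 4736 genes named there by 1 symbol. Pdk4 had 1 probe set (AF034577_at), Pdk2 had 2 (U10357_g_at and U10357_at, both designed from the same sequence record) and Ucp3 had 2 (AF035943_at and AF030163_s_at). All 5 were bright enough to be tested. U10357_g_at for Pdk2 and AF035943_at for Ucp3 had the higher means and stand for their genes, with the other set given beside each. Total RNA was hybridised to 36 arrays in 12 groups of muscle and age, with 3 arrays in each group. The labels name no strain, sex, treatment or genotype and do not say whether replicates were separate animals or pools, so p-values here reflect the spread among arrays, which may be technical.

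Pyruvate dehydrogenase turns pyruvate from glucose into acetyl-CoA, and its kinases switch it off by phosphorylating the E1 subunit. Pdk4 encodes the kinase that muscle makes more of during fasting and on fatty diets, and Pdk2 encodes the kinase that is present in most tissues. Both are held to save glucose while fat is burned. Ucp3 encodes an uncoupling protein of the inner mitochondrial membrane in skeletal muscle and brown fat, and its transcript is also known to rise when fatty acids are plentiful. Suckling rats live on fat-rich milk and turn to solid food around weaning, which is background and is not in the labels.

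All 3 genes had their highest group mean in leg at day 45. Pdk4 and Ucp3, which both rose there after day 28, are shown with the 250 bases that precede their annotated starts. In the RefSeq annotation of the GRCr8 build, Pdk4 lies on the minus strand at chr4:34558327-34568329, Ucp3 on the plus strand at chr1:164227910-164240893 and Pdk2 on the minus strand at chr10:80469388-80483988. All 3 genes matched the RefSeq promoter table, and the window before Pdk2 was left out because part of it lies inside the annotated gene. Each sequence is written 5′ to 3′ on the strand of its gene, from chr4:34568330-34568579 for Pdk4 and chr1:164227660-164227909 for Ucp3, and capitals mark AGGTCA (the half-site bound by nuclear receptors) or CCAAT on either strand.
Pdk4: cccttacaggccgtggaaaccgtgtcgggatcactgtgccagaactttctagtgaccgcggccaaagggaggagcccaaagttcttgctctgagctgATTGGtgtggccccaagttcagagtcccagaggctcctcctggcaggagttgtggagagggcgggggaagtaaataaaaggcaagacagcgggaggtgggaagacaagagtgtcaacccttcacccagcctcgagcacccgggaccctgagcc
Ucp3: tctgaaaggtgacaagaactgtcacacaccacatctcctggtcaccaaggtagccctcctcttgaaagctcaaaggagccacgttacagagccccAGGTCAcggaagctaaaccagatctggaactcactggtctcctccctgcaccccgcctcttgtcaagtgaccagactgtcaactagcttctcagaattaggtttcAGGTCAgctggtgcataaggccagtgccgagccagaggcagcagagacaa

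The Ucp3 stretch held 2 matches to AGGTCA, which begin 155 and 50 bases before the start, and the Pdk4 stretch held 1 match to the CCAAT box, read as ATTGG on the gene's strand, 153 bases before the start. Of 33469 annotated rat promoters searched on both strands in windows of the same length, 14.1% held AGGTCA and 34% held CCAAT. Neither window held the forkhead core GTAAACA (3.21% of promoters) or the TATA box TATAAA (12.9%). The E-box CANNTG, found in 65.5% of promoters, had 2 matches in Ucp3 and 0 in Pdk4, and the Ucp3 match that begins 46 bases before the start overlaps the nearer AGGTCA by 2 bases. A match describes letters in a window and no binding was measured.

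Values are deposited intensities on a linear scale, in arbitrary units that cannot be compared between probe sets. Differences are in log2 units, EOM minus leg or later minus earlier, with the standard error of a limma fit over all 36 arrays and p-values adjusted over the 6672 probe sets tested. Values under 100.9, the 20th percentile of all values, were set to that floor before the log. Array medians ran from 418.7 to 652.2 intensity units, and arrays of a group correlated at 0.877 to 0.953 across probe sets. The arrays numbered 3 stood apart for Pdk4, having its lowest value in 11 of 12 groups. Where leaving them out changed a call of a member, the value without them is given. The 15 skeletal muscle markers on the array were tested in both muscles, and Myh7, Des, Tnni2 and Pygm read 4282.4 units or more on every array. The probe set of Ckm, the muscle creatine kinase, lay at the floor on 21 of 36 arrays, that of Atp2a1 on 4 and that of Tnnt3 on 1. Ckm read from 0 to 23834.7 units with a median of 0.3, and exceeded 320.4 on the other 15 arrays. Whether this came from the probe set or the samples was not tested, and Ckm is counted in the 15 markers and their sums. The lowest readings of the remaining muscle markers ran from 145.1 units for Myh4 to 2224.3 for Tnnc2. Of 10 fat cell markers on the array, Plin1, which coats fat droplets, lay at the floor on 27 of 36 arrays and the brown fat gene Ucp1 did not exceed 443.2 units. The adipokine Lep read 5969.4 to 13226.9 units, Fabp4 read 1270.8 to 7626.9, Lipe read 1125.5 to 4462.6, and Fasn and Cidea read at least 978.7 and 502.4 on every array. The precision is limited by the number of arrays, 3 in each group.

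Pdk4, the kinase of the fasted state, read close to the floor in EOM at birth and far above it in leg, and was highest of all groups in leg at day 45. In EOM at day 0 the arrays read 153.6, 106.4 and 57.9 units, the last of them under the floor. In leg at day 0 they read 1106.1, 767.0 and 1197.5, so that every leg array lay above every EOM array. The difference was -3.09 ± 0.61 (limma adjusted p = 0.000992), and Pdk4 was at least 8.51-fold lower in EOM, a bound because 1 EOM array was at the floor. At this age 6.32% of the tested probe sets were called in either direction, and 8.78% had all EOM arrays under all leg arrays. In these bulk samples fewer cells of a type and less RNA per cell cannot be told apart.

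Other tissue also differed at birth: all 8 gland and epithelium markers on the array were higher in EOM at day 0, and their summed intensity ran from 27268.0 to 36134.8 in EOM against 2773.4 to 4211.2 in leg. Of the 15 skeletal muscle markers 5 were lower and 1 higher in EOM at that age. Of 5 Schwann cell markers 3 were higher in EOM (median difference 1.18), with sums of 22953.9 to 24284.8 units against 18085.5 to 22237.3 in leg, and 2 of 6 endothelium and smooth muscle markers were higher. Of 9 fat cell markers tested 2 were lower, and the sum over the 10 on the array was 15880.6 to 20518.2 in EOM and 23991.3 to 28851.6 in leg, with Plin1 at the floor on all 3 EOM arrays. Marker sums took the probe set of highest mean intensity for each gene, and tests took that of highest mean log2 value. These were different sets for Krt18, Fasn, Acta2 and Cd74. The part of these tissues in the Pdk4 difference was not tested.

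From day 7 to day 28 the muscles overlapped in Pdk4. At day 7 EOM read 604.5, 688.7 and 252.1 units and leg read 922.7, 640.6 and 81.2, the last of them under the floor. The leg arrays spanned the whole EOM range, and the difference was 0.27 ± 0.61 (limma adjusted p = 0.933). At day 14 EOM read 896.6, 1122.2 and 557.9 units and leg read 1207.9, 1949.7 and 744.4. At day 21 EOM read 1925.4, 1433.6 and 591.8 units and leg read 1710.8, 1464.6 and 715.4. At day 28 EOM read 1301.3, 1349.1 and 812.8 units and leg read 922.8, 1982.5 and 781.0. At all 3 of these ages the third array was the lowest of its group in both muscles. Differences were -0.55, -0.045 and -0.00, with 95% intervals of -1.80 to 0.70, -1.29 to 1.21 and -1.25 to 1.25, which leave room for differences of 2-fold at each of them. The share of all probe sets called was 4.98%, 4.92%, 4.03% and 11.8% at days 7, 14, 21 and 28.

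At day 45 the muscles were apart again. EOM arrays read 1984.5, 1232.9 and 445.1 units, a wider range than at day 28. Leg arrays read 8139.6, 5373.4 and 3775.7 units, and the lowest of them was above every other Pdk4 value of the series. How many probe sets have such a gap was not counted. Pdk4 was 5.33-fold lower in EOM (-2.42 ± 0.61, limma adjusted p = 0.00917), where 10.6% of all probe sets were called and 9.07% had all EOM arrays under all leg arrays. The call was lost without the third EOM array (-1.81, adjusted p = 0.0696), without the first leg array (-2.13, adjusted p = 0.0559) and when only the 6 arrays of day 45 were fitted (adjusted p = 0.0668).

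**Figure D1:**
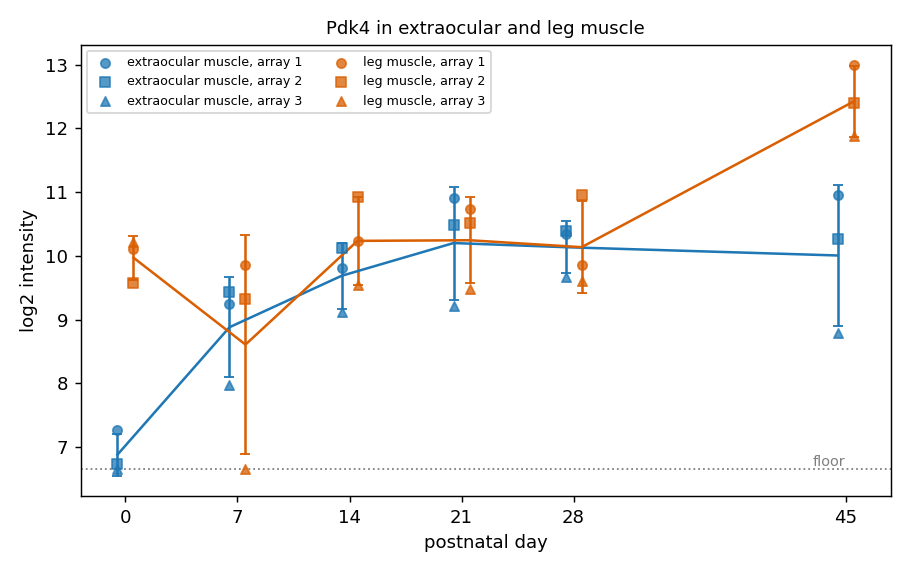
Pdk4 (AF034577_at) as log2 intensity against postnatal day, with each array as a point shaped by its number, group means as lines, bars of 1 SD (n = 3) and the floor dotted. EOM starts at 6.88 and levels near 10 from day 21, while leg starts at 9.97, reads 8.61 at day 7 with 1 array at the floor, and reaches 12.42 at day 45.

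Averaged over the 6 ages with equal weight, Pdk4 was lower in EOM by -0.97 ± 0.25 (limma adjusted p = 0.00306), in a comparison that called 31.8% of all probe sets. The difference between muscles varied with age by a moderated F test on 5 degrees of freedom (F = 5.40, adjusted p = 0.0332), a test that called 4.05% of probe sets. This call was lost with the floor at the 30th percentile (adjusted p = 0.0556), without the filter on dim probe sets (0.083), with a variance prior that has no trend (0.0518) and in 10 of the 36 fits that each left out 1 array. Ordered by mean log2 level with SD, Pdk4 ran from EOM day 0 (6.88 ± 0.33) through leg day 7 (8.61 ± 1.71), EOM day 7 (8.88 ± 0.79), EOM day 14 (9.69 ± 0.52), leg day 0 (9.97 ± 0.34) and EOM day 45 (10.01 ± 1.10). EOM day 28 (10.14 ± 0.41), leg day 28 (10.14 ± 0.72), EOM day 21 (10.20 ± 0.89), leg day 14 (10.24 ± 0.69) and leg day 21 (10.25 ± 0.67) followed, and leg day 45 (12.42 ± 0.56) was at the top. Each neighbouring pair in this order overlapped in range except the last, since leg day 45 lay above leg day 21. No share over all probe sets was counted for that pair.

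Across time, Pdk4 rose in both muscles. It changed with age in EOM (moderated F = 8.74, limma adjusted p = 0.000292) and in leg (F = 8.01, adjusted p = 0.000485), where the same tests called 31.4% and 35.9% of probe sets. Day 45 was above day 0 by 3.12 ± 0.61 in EOM (adjusted p = 0.000184) and by 2.45 ± 0.61 in leg (adjusted p = 0.00223), against 31.3% and 32.8% of probe sets called. These changes differed by 0.67 ± 0.87 (adjusted p = 0.825, 3.7% of probe sets called), with a 95% interval of -1.09 to 2.44. By their means the 2 muscles reached their totals by different steps, but no difference between muscles in a step passed in the main fit. In EOM the step from day 0 to day 7 was the steepest at 2.00 ± 0.61, and all day 7 arrays lay above all day 0 arrays, as on 7.21% of probe sets, but it did not pass (adjusted p = 0.098, 1.87% of probe sets called). It passed with the array number as a block (adjusted p = 0.00617), without the arrays numbered 3 (adjusted p = 0.00253) and under quantile normalization (2.04, adjusted p = 0.0495). The leg step from day 7 to day 14 also passed with the block (1.63, adjusted p = 0.0187). In leg the step from day 0 to day 7 was -1.36 ± 0.61 (adjusted p = 0.591) and rested on the array of 81.2 units. The difference between these first steps was 3.36 ± 0.87 (adjusted p = 0.153, or 0.00624 with the block, in a comparison added after seeing the data that called 0.0749% of probe sets).

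Leg Pdk4 rose 4.87-fold between day 28 and day 45 (2.28 ± 0.61, limma adjusted p = 0.0445), a step at which 1.96% of all probe sets were called. Without the arrays numbered 3 the step was 2.29 (adjusted p = 0.00261). It missed the threshold with arrays scaled to the same median (2.10, adjusted p = 0.0539), with the floor at the 10th percentile (adjusted p = 0.0646), without the filter (adjusted p = 0.0737), with a variance prior that has no trend (adjusted p = 0.0565), with only the groups compared in the fit (adjusted p = 0.22) and without any of 4 of its 6 arrays (adjusted p up to 0.192). In EOM the same step was -0.13 ± 0.61 (adjusted p = 0.965). The difference of these late steps was -2.41 ± 0.87 (adjusted p = 0.496, in a comparison added after seeing the data that called 0.045% of probe sets), so a late rise in leg alone is not shown by a test of the difference. The mean of days 7 and 14, set against the mean of days 28 and 45, was lower in leg by -1.86 ± 0.43 (adjusted p = 0.00146, 27.8% of probe sets called). In EOM it was lower by -0.79 ± 0.43 (adjusted p = 0.218, 19.7% called), and without the arrays numbered 3 that difference passed (-0.84, adjusted p = 0.0396).

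Pdk2, the more widely expressed kinase, rose after birth in both muscles, and none of its differences between them passed the test at any age. In EOM its probe set U10357_g_at read 2842.6, 2871.9 and 2651.6 units at day 0, 3564.1, 3959.5 and 3695.0 at day 7, and 5952.3, 6590.8 and 4659.1 at day 14. It then read 8956.3, 9226.9 and 6705.8 units at day 21, 9436.5, 9692.5 and 9809.3 at day 28, and 8841.8, 8334.9 and 9122.5 at day 45. The groups of days 0, 7, 14, 21 and 28 followed one another upwards without overlap in EOM, as on 7.21%, 9.5%, 4.51% and 5.44% of probe sets for the 4 steps, and day 45 lay under day 28, as on 4.75%. In leg it read 2548.5, 2286.9 and 2416.0 units at day 0, 5911.8, 6245.0 and 4255.1 at day 7, and 6668.9, 7524.5 and 5410.5 at day 14. It then read 10800.1, 11100.2 and 7029.7 units at day 21, 12626.3, 11040.1 and 5449.5 at day 28, and 11328.5, 16108.2 and 12591.4 at day 45. Leg groups overlapped with the next age at every step but the first (5.65% of probe sets), with the third array lowest from day 7 to day 28.

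**Figure D2:**
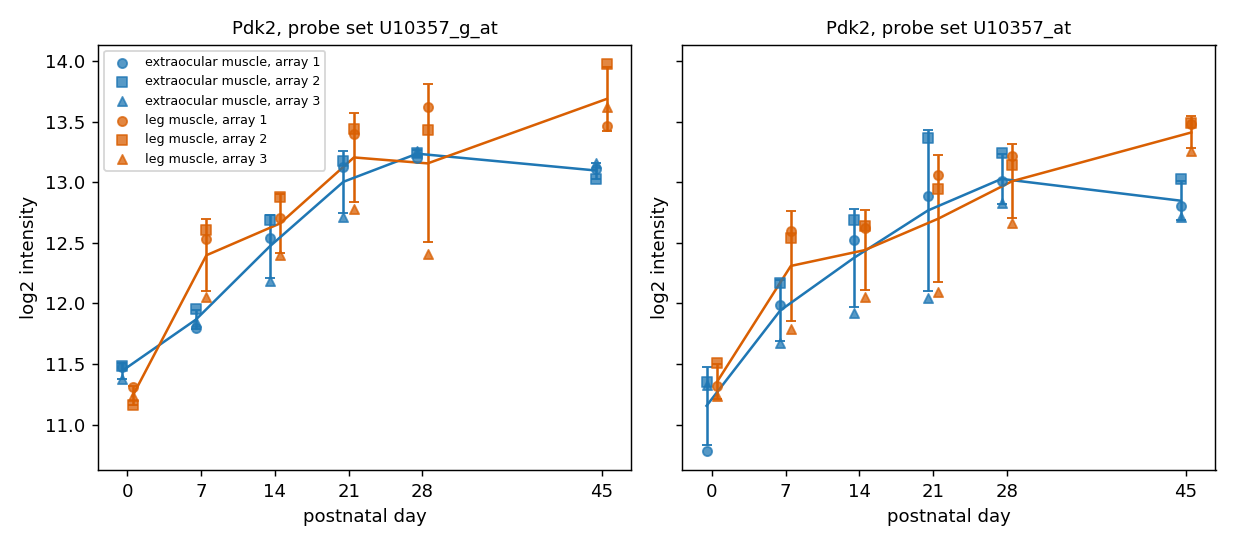
The 2 Pdk2 probe sets as log2 intensity against postnatal day, with arrays as points shaped by number, group means as lines and bars of 1 SD (n = 3). Both rise from near 11.3 at day 0 in both muscles, to 13.10 in EOM and 13.69 in leg at day 45 on U10357_g_at and to 12.85 and 13.41 on U10357_at.

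Day 45 was above day 0 by 1.65 ± 0.23 in EOM (limma adjusted p = 1.05e-06) and by 2.45 ± 0.23 in leg (adjusted p = 6.88e-10) on U10357_g_at. On U10357_at the rises were 1.69 ± 0.28 and 2.06 ± 0.28 (adjusted p = 2.11e-05 and 9.58e-07). The rises of the 2 muscles differed by -0.80 ± 0.32 on the first set (EOM minus leg), which did not pass (adjusted p = 0.202) and passed without the arrays numbered 3 (-0.90, adjusted p = 0.0408). Pdk2 changed with age in EOM (moderated F = 21.0, adjusted p = 1.85e-07) and in leg (F = 28.9, adjusted p = 7.11e-09). Of the 10 steps between neighbouring ages, 5 in each muscle, 1 was called, the rise in leg from day 0 to day 7 of 1.16 ± 0.23 on U10357_g_at (adjusted p = 0.00415). The leg steps in order called 0.824%, 3.9%, 0.659%, 0.15% and 1.96% of all probe sets and the EOM steps 1.87%, 6.22%, 0.6%, 0.105% and 0.21%. U10357_at gave 0.95 ± 0.28 for it (adjusted p = 0.131, or 0.00706 with the array number as a block and 0.00467 without the arrays numbered 3). The call on the first set was lost without the second leg array of day 7 (1.06, adjusted p = 0.0506) and with only the groups compared in the fit (adjusted p = 0.0799). In EOM the step from day 7 to day 14 on U10357_g_at passed with the block (0.60, adjusted p = 0.0422) and without the arrays numbered 3 (0.74, adjusted p = 0.0116). The EOM step from day 0 to day 7 on U10357_at passed under the same 2 alternatives (0.79, adjusted p = 0.0248, and 1.01, adjusted p = 0.0133). In EOM the mean of days 7 and 14 was lower than that of days 28 and 45 by -0.997 ± 0.16 (adjusted p = 2.87e-05), and in leg by -0.89 ± 0.16 (adjusted p = 6.81e-05).

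Between muscles no Pdk2 difference passed at any age. The largest was at day 45, where all EOM arrays lay under all leg arrays on both sets, as on 9.07% of probe sets. The difference was -0.59 ± 0.23 on U10357_g_at (limma adjusted p = 0.0947) and -0.56 ± 0.28 on U10357_at (adjusted p = 0.234). With the array number as a block the first of these passed (adjusted p = 0.033), as it did without the arrays numbered 3 (-0.65, adjusted p = 0.0146). At day 7 U10357_g_at gave -0.53 ± 0.23 (adjusted p = 0.258, or 0.0208 without the arrays numbered 3), with EOM under leg on every array, as on 9.2% of probe sets. At day 0 it gave 0.21 ± 0.23 (adjusted p = 0.773), with EOM above leg on every array, as on 14.5% of probe sets, at day 14 -0.19, at day 21 -0.20 and at day 28 0.08. Averaged over the ages it was -0.20 ± 0.09 (adjusted p = 0.0908), a value that passed with arrays scaled to the same median (-0.29, adjusted p = 0.0136), with the block (adjusted p = 0.0372) and without the arrays numbered 3 (-0.31, adjusted p = 0.00227). On U10357_at the average passed with the same scaling (-0.27, adjusted p = 0.0493) and without the arrays numbered 3 (adjusted p = 0.0395). The interaction with age was not called on either set (adjusted p = 0.499 and 0.92). U10357_g_at read above 9392.2 units, the brightest 5% of values, on 10 arrays, where differences between arrays can be compressed.

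By mean log2 level, Pdk2 on U10357_g_at ran from leg day 0 (11.24 ± 0.08 SD) through EOM day 0 (11.44 ± 0.06), EOM day 7 (11.87 ± 0.08), leg day 7 (12.40 ± 0.30), EOM day 14 (12.47 ± 0.26) and leg day 14 (12.66 ± 0.24). Next came EOM day 21 (13.00 ± 0.25), EOM day 45 (13.10 ± 0.07), leg day 28 (13.16 ± 0.65), leg day 21 (13.21 ± 0.37), EOM day 28 (13.24 ± 0.03) and leg day 45 (13.69 ± 0.26). The first 4 groups did not overlap with one another, as on 14.5%, 7.21% and 9.2% of probe sets for the neighbouring pairs in order. Leg day 45 did not overlap with EOM day 28, a pair for which no share over all probe sets was counted. Every other neighbouring pair overlapped.

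Ucp3, the muscle uncoupling protein, varied less than the kinases on its brighter probe set and was highest in leg at day 45 on both sets. In EOM AF035943_at read 1257.7, 1326.6 and 1361.1 units at day 0, 1433.6, 1560.4 and 1200.5 at day 7, and 1837.7, 1972.1 and 1676.5 at day 14. It then read 1650.1, 2353.2 and 1317.6 units at day 21, 2089.5, 2128.4 and 1676.6 at day 28, and 2284.3, 2600.1 and 1341.6 at day 45. The EOM groups of day 0 and day 45 overlapped, through the third array of day 45. In leg it read 1394.9, 1808.4 and 1997.0 units at day 0, 1602.2, 1879.9 and 1288.2 at day 7, and 1609.2, 2346.3 and 2240.0 at day 14. It then read 1884.2, 2954.7 and 1458.4 units at day 21, 2217.6, 2214.1 and 1622.4 at day 28, and 3326.7, 3834.5 and 4983.2 at day 45. All 3 leg arrays of day 45 lay above the other 33 arrays, a gap whose share over all probe sets was not counted.

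At day 45 Ucp3 was 2.00-fold lower in EOM on this set (-0.999 ± 0.25, limma adjusted p = 0.0093). The arrays numbered 3 carried part of it, since the third leg array was the highest of its group and the third EOM array the lowest. Without the arrays numbered 3 the difference was -0.55 (adjusted p = 0.152), without the third EOM array of day 45 alone it was -0.71 (adjusted p = 0.077), and with only the 6 arrays of that age it was not called (adjusted p = 0.144). The other set, AF030163_s_at, whose suffix marks probes that match more than 1 sequence, read 2278.0, 2514.6 and 2523.5 units in EOM and 3794.7, 3203.9 and 4697.4 in leg at day 45. Its EOM arrays lay under its leg arrays, as on 9.07% of probe sets, but the difference of -0.66 ± 0.29 did not pass (adjusted p = 0.162). Averaged over the ages both sets were lower in EOM, by -0.33 ± 0.10 (adjusted p = 0.0147) and -0.40 ± 0.12 (adjusted p = 0.00998). The first of these averages was -0.24 without the arrays numbered 3 (adjusted p = 0.0756).

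At day 0 the EOM arrays lay under the leg arrays on both Ucp3 sets, as on 8.78% of probe sets. The differences were -0.38 ± 0.25 (limma adjusted p = 0.532) and -0.78 ± 0.29 (adjusted p = 0.123). AF030163_s_at read 934.9, 824.1 and 804.0 units in EOM at that age and 1393.7, 1296.0 and 1748.2 in leg, and its difference passed with arrays scaled to the same median (-0.92, adjusted p = 0.035). From day 7 to day 28 the muscles overlapped on both sets, and AF035943_at gave -0.18, -0.16, -0.22 and -0.03. The interaction with age was not called on either set (adjusted p = 0.538 and 0.869).

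**Figure D3:**
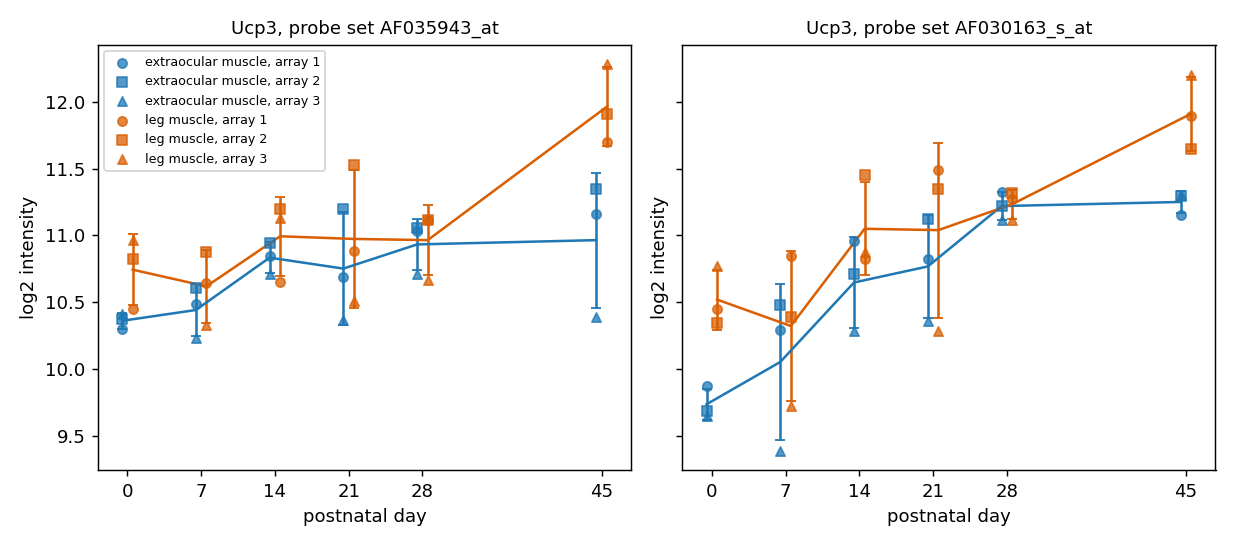
The 2 Ucp3 probe sets as log2 intensity against postnatal day, with arrays as points shaped by number, group means as lines and bars of 1 SD (n = 3). Leg at day 45 is the highest group on both, at 11.96 on AF035943_at and 11.91 on AF030163_s_at, against 10.96 and 11.25 in EOM.

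In leg Ucp3 rose between day 0 and day 45 by 1.22 ± 0.25 on AF035943_at (limma adjusted p = 0.000337) and by 1.39 ± 0.29 on AF030163_s_at (adjusted p = 0.000373). In EOM the sets disagreed on the call. AF030163_s_at rose by 1.52 ± 0.29 (adjusted p = 0.000151), while AF035943_at gave 0.60 ± 0.25 (adjusted p = 0.0699). The latter passed with arrays scaled to the same median (0.72, adjusted p = 0.0154), under quantile normalization (0.80, adjusted p = 0.00529), with the array number as a block (adjusted p = 0.0329) and without the arrays numbered 3 (0.92, adjusted p = 0.0086). The changes of the 2 muscles differed by -0.62 ± 0.36 (adjusted p = 0.478) and 0.12 ± 0.41 (adjusted p = 0.95).

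Most of the leg change on AF035943_at fell into its last interval, as for Pdk4: it rose by 1.00 ± 0.25 from day 28 to day 45 (limma adjusted p = 0.031). AF030163_s_at gave 0.68 ± 0.29 for it (adjusted p = 0.266), with no overlap of the groups, as on 12.2% of probe sets. The call on AF035943_at was lost without the arrays numbered 3 (0.69, adjusted p = 0.159), with arrays scaled to the same median (0.82, adjusted p = 0.0539), with only the groups compared in the fit (adjusted p = 0.263) and without any of 5 of its 6 arrays (adjusted p up to 0.128). In EOM the step was 0.03 ± 0.25 (adjusted p = 0.981), and the difference of the steps was -0.97 ± 0.36 (adjusted p = 0.526). The mean of days 7 and 14 was under that of days 28 and 45 in leg on both sets, by -0.66 ± 0.18 (adjusted p = 0.00577) and -0.89 ± 0.21 (adjusted p = 0.00144). In EOM it was under it on AF030163_s_at (-0.89 ± 0.21, adjusted p = 0.00237), while AF035943_at gave -0.31 ± 0.18 (adjusted p = 0.243). None of the 5 probe sets passed the test of a difference between the muscles in this contrast, which called 1.63% of all probe sets.

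Ordered by mean log2 level, AF035943_at ran from EOM day 0 (10.36 ± 0.06 SD), EOM day 7 (10.44 ± 0.19), leg day 7 (10.62 ± 0.27) and leg day 0 (10.74 ± 0.27) to EOM day 21 (10.75 ± 0.42) and EOM day 14 (10.83 ± 0.12). EOM day 28 (10.93 ± 0.19), EOM day 45 (10.96 ± 0.51), leg day 28 (10.96 ± 0.26), leg day 21 (10.97 ± 0.52) and leg day 14 (10.99 ± 0.30) followed, under leg day 45 (11.96 ± 0.30). Only leg day 45 did not overlap with its neighbour in that order, again without a share counted over all probe sets.

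**Figure D4:**
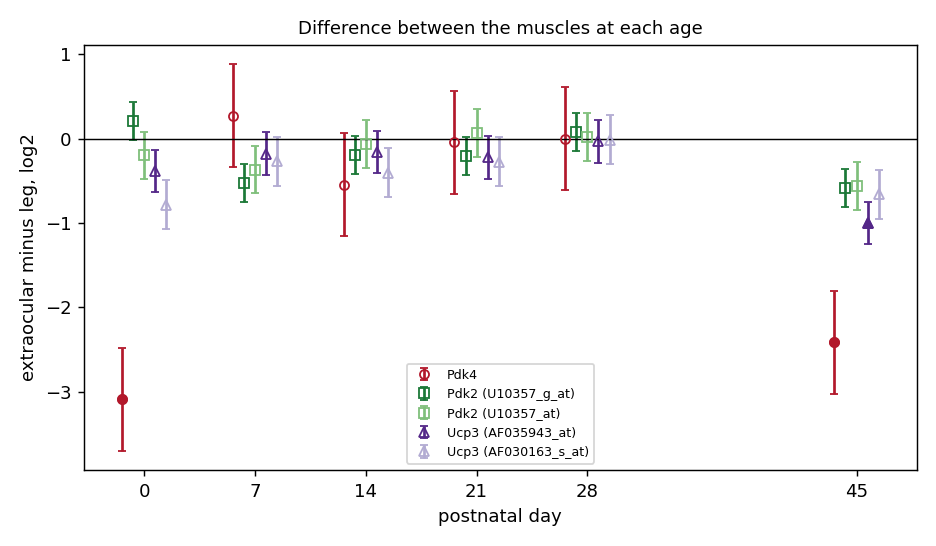
EOM minus leg in log2 units for the 5 probe sets at each postnatal day, with bars of 1 standard error of the limma fit and filled symbols where the adjusted p is under 0.05. Filled symbols stand at day 0 for Pdk4 (-3.09) and at day 45 for Pdk4 (-2.42) and Ucp3 on AF035943_at (-0.999), and every other symbol is open.

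The level of the 3 genes over the 12 group means went together to different degrees, given as a description since the points share the arrays. Pearson's r was 0.898 between Pdk4 and Ucp3, 0.721 between Pdk4 and Pdk2 and 0.731 between Pdk2 and Ucp3 over 12 group means. The 2 sets of Pdk2 correlated at 0.981 and those of Ucp3 at 0.908. Among 2663 genes with a range of at least 1 log2 unit, the course most like that of Pdk4 was that of Pde4d, a cyclic AMP phosphodiesterase (r = 0.933), then Rab7a, a GTPase of late endosomes (0.901), Ucp3, Trhr, a receptor of thyrotropin-releasing hormone (0.897), and Pnoc, the nociceptin precursor (0.892). All 5 were lowest in EOM at day 0 and highest in leg at day 45, as Pdk4 was, which follows in part from how they were picked. Nearest to Pdk2 were Oma1, a protease of the inner mitochondrial membrane (0.954), Ube2b, Ndufb11, a subunit of respiratory complex I, and Spop (each 0.953) and Atp5f1a, a subunit of ATP synthase (0.948). Nearest to Ucp3 were Gkn1 (0.934), Shh (0.929), Myl7, the atrial myosin light chain (0.903), Pdk4 and Bmp2k (0.893). Each r rests on 12 group means of 3 arrays.

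The complex that the kinases act on was set beside them. Of 8 tested genes of the pyruvate dehydrogenase complex and its regulators, which include the subunits, the kinase Pdk1 and the phosphatase Pdp1, 0 were called by limma between muscles at day 0 (2 before adjustment, at an unadjusted p under 0.05) and 0 at day 45 (1 before adjustment). Their median difference was -0.27 at day 0 and -0.13 at day 45, beside 0.05 and 0.01 over all probe sets. The shares of all probe sets called were 6.32% at day 0, 10.6% at day 45 and 11.8% at day 28. At day 28, Pdk1, another kinase of the family, was higher in EOM (1.02 ± 0.34, adjusted p = 0.0453). At days 7, 14 and 21 limma called 0 of the 8, with 0, 1 and 0 of them under 0.05 before adjustment.

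With age the complex rose in both muscles. Between day 0 and day 45, 5 of 8 members rose and 0 fell in each muscle, where 31.3% (EOM) and 32.8% (leg) of all probe sets were called in either direction. They were Pdhx, the subunit that binds E3 (2.06 ± 0.40 in EOM and 1.77 ± 0.40 in leg), Pdp1, the phosphatase that switches the complex back on (1.57 ± 0.29 and 1.41 ± 0.29), Dlat, the E2 subunit (1.36 ± 0.21 and 1.02 ± 0.21), Pdhb (1.21 ± 0.17 and 0.99 ± 0.17) and Pdha1 (0.72 ± 0.16 and 0.80 ± 0.16), the subunits of E1. The median change was 0.99 in EOM and 0.89 in leg, beside -0.04 and 0.06 over all probe sets. From day 28 to day 45 in leg, the step called for Pdk4 and for Ucp3 on AF035943_at, limma called 0 of the 8 (0 at an unadjusted p under 0.05). Their median change was 0.04, beside 0.12 over all probe sets.

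Genes of fatty acid uptake and oxidation, the pathway that Pdk4 is known to rise with, came next. At day 0, when 6.32% of all probe sets were called, the median of the 29 tested was -0.51 beside 0.05 over all. Of them 7 were lower in EOM and 2 were higher. They included Cd36, which carries fatty acids across the plasma membrane (-1.996 ± 0.36), Fabp3, the fatty acid binding protein of muscle (-1.86 ± 0.20), and Acsl1, which activates fatty acids (-1.15 ± 0.23), while the thioesterase Acot1 was higher (2.49 ± 0.39). At day 45, Acsl5 (1.69 ± 0.35) and Decr1, which reduces unsaturated intermediates (1.31 ± 0.27), were higher in EOM and Lpl, the lipase that frees fatty acids from lipoproteins, was lower (-0.58 ± 0.15), with a median of 0.13 beside 0.01. In between, 2, 1, 1 and 2 of the 29 were called at days 7, 14, 21 and 28. The shares of all probe sets called were 4.98%, 4.92%, 4.03% and 11.8% at these ages and 10.6% at day 45. With age 20 of the 29 rose and 4 fell in EOM, and 13 rose and 5 fell in leg, against 31.3% and 32.8% of all probe sets called in either direction. The median change was 0.99 in EOM and 0.49 in leg, beside -0.04 and 0.06 over all probe sets. Fabp3 rose by 4.01 ± 0.20 in EOM and 2.26 ± 0.20 in leg, and Acadm, the medium-chain dehydrogenase, by 3.46 ± 0.18 and 2.45 ± 0.18. From day 28 to day 45 in leg Cd36 alone of the 29 was called (1.38 ± 0.36, adjusted p = 0.0353), and 5 had an unadjusted p under 0.05.

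Of the 2 tested ketone body genes, Acat1, the mitochondrial thiolase, was lower in EOM at day 0 (-0.71 ± 0.17), and Bdh1, which turns hydroxybutyrate into acetoacetate, was higher at day 45 (1.94 ± 0.47). Of 9 tested genes of glucose uptake, hexokinases and lactate, Slc2a1, a glucose transporter of many cell types, was higher in EOM at day 0 (1.57 ± 0.33) and day 45 (1.25 ± 0.33). Slc16a3, the lactate exporter of glycolytic fibres, was lower at both ages (-0.96 ± 0.29 and -1.22 ± 0.29), and Hk1 was higher at day 45 (1.45 ± 0.21). Of all probe sets 6.32% were called at day 0 and 10.6% at day 45. Over time 6 of the 9 rose and 0 fell in EOM, while 3 rose and Hk1 fell in leg, again against 31.3% and 32.8% of all probe sets, with medians of 0.76 and 0.74 beside -0.04 and 0.06. Slc2a4, the insulin-responsive glucose transporter, rose by 2.92 ± 0.20 in EOM and 2.81 ± 0.20 in leg, and it was the 1 member called in leg from day 28 to day 45 (0.98 ± 0.20, adjusted p = 0.00663).

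Among 20 tested upstream regulators, the nuclear receptors, forkhead factors, kinases and coactivators known to act on these genes, limma called 0 between muscles at birth (3 with an unadjusted p under 0.05) and 2 at day 45. Of all probe sets 6.32% and 10.6% were called at these ages, so the count at day 45 is near that share. The 2 were Cebpb, a transcription factor (-1.33 ± 0.36), and Akt2, a kinase of insulin signalling (-1.02 ± 0.32), both lower in EOM. Between day 0 and day 45, 6 of the 20 were called in leg and 7 in EOM, near the 32.8% and 31.3% of all probe sets called there. In leg 4 rose and 2 fell, among them Prkaa2, a catalytic subunit of AMP-activated kinase (2.59 ± 0.64), Cebpb (2.05 ± 0.36), Thra, a thyroid hormone receptor (-1.56 ± 0.20), and Esrra, a receptor of mitochondrial genes (1.07 ± 0.20). In EOM 3 rose and 4 fell, among them the glucocorticoid receptor Nr3c1 (-2.004 ± 0.48), Prkaa2 (1.73 ± 0.64), Pparg (-1.25 ± 0.49) and Esrra (1.07 ± 0.20). From day 28 to day 45 in leg 0 of the 20 were called by limma (2 at an unadjusted p under 0.05). Of 5 tested relatives of Ucp3, the other uncoupling proteins and the adenine nucleotide carriers, limma called 0 at birth (0 with an unadjusted p under 0.05), and the carrier Slc25a5 was higher in EOM at day 45 (1.22 ± 0.24), having fallen in leg with age (-1.94 ± 0.24).

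Marker lists were read over the late interval in leg. From day 28 to day 45 in leg, limma called 0 of 15 skeletal muscle markers (3 at an unadjusted p under 0.05) and 0 of 9 fat cell markers (0 at an unadjusted p under 0.05). The summed fat markers ran from 26431.2 to 29649.0 units in leg at day 28 and from 28019.5 to 29326.0 at day 45, and 0 and 1 of the 10 genes lay at the floor on all 3 arrays. The summed muscle markers ran from 240382.2 to 270157.8 units at day 28 and from 188548.2 to 263692.9 at day 45. Sums of other cell types moved over this interval: endothelium and smooth muscle markers ran from 16049.9 to 29106.5 units at day 28 and from 6583.9 to 9117.8 at day 45, with no overlap. Limma called 0 of the 6 tested (1 at an unadjusted p under 0.05, median -0.12), but the Acta2 probe set tested is not the set summed. Leukocyte markers ran from 4005.8 to 4848.2 units and then from 5855.6 to 10645.4, again with no overlap. Of the 4 tested limma called 0 (1 at an unadjusted p under 0.05, median 0.70), with Cd74 also summed and tested on different sets. Their part in the leg rises of Pdk4 and Ucp3 was not tested. Between muscles at day 45, 3 of 5 Schwann cell markers and 0 of 8 gland markers were higher in EOM, with 2 fat markers higher and 1 lower. Of 6 endothelium and smooth muscle markers 3 were higher in EOM (median 0.84), with sums of 17517.4 to 21998.7 units against 6583.9 to 9117.8 in leg, and 2 of 15 skeletal muscle markers were lower. At that age 10.6% of all probe sets were called in either direction. The summed fat markers of EOM at day 45 ran from 28791.7 to 36926.4 units. Its summed muscle markers ran from 136184.8 to 371254.9 units, a wider range than in leg at that age. Sums of the 3 erythroid markers, of red blood cells, ran from 7773.4 to 40390.7 units in EOM and from 20413.6 to 24865.6 in leg. The part of these cell types in the day 45 differences was not tested.

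The spread behind these values followed the array number in the labels. The arrays numbered 3 had the lowest value of their group in 11 of 12 groups for Pdk4, leg day 0 being the exception, in 11 for Pdk2 on U10357_at, in 7 on U10357_g_at and in 8 on both Ucp3 sets. Over all 6672 probe sets the median was 5 groups, while 24.2% had 7 or more, 14.4% had 8 or more and 0.854% had 11 or more. For Pdk4 the arrays numbered 3 lay 0.716 log2 units under their group means on average, those numbered 1 lay 0.41 above and those numbered 2 lay 0.31 above. The array median intensity was also lowest on the arrays numbered 3 in 10 of 12 groups. The ratio of the 3′ to the 5′ beta-actin control, a sign of RNA quality, had medians of 0.971, 0.944 and 1.03 for numbers 1, 2 and 3. On number 3 it ran from 0.497 to 1.683. It also differed between groups compared. At day 45 it was 1.545, 1.48 and 1.355 in EOM and 1.041, 1.202 and 1.305 in leg. In leg at day 28 it was 0.984, 0.948 and 0.903, below every leg array of day 45. At day 0 the muscles overlapped in it. The part of this ratio in the member results was not tested. The part of the array number in the member results was not tested beyond leaving those arrays out and taking the number as a block.

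**Figure D5:**
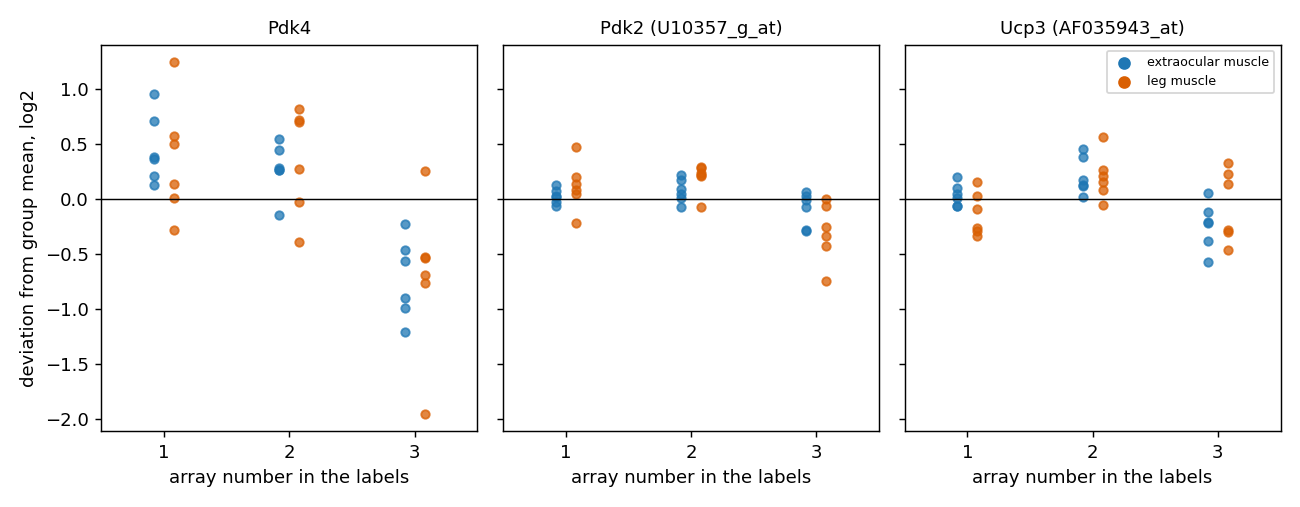
Deviation of each array from its group mean, in log2 units, against the array number in the labels, for Pdk4, Pdk2 and Ucp3 on their brighter sets, with 12 groups as points coloured by muscle. Pdk4 points of number 3 lie under 0 in 11 of 12 groups, with a mean of -0.716, while the means for Pdk2 and Ucp3 are -0.20 and -0.15.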

How the data were processed

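RNA of 36 arrays was measured by the authors on Affymetrix RG-U34A arrays, per the labels. The deposited intensity table holds 1 linear value per probe set and array, with trimmed means of 1499.4 to 1501.1, so arrays had been scaled to a common level. How the probes were summarised is not stated in any label used here. No further scaling was applied, intensities under 100.9 were raised to it before taking log2, 59 control probe sets were left out, and the 6672 probe sets above 320.4 (the 40th percentile) on 3 or more arrays were tested. Gene names came from the platform annotation of 2016, which gave 7006 probe sets 1 symbol.

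Groups came from the titles. A limma model (version 3.58.1, R 4.3.3) estimated 12 group means from all 36 arrays, using a trended prior, 24 residual and 5.84 prior degrees of freedom and Benjamini-Hochberg adjustment within each comparison at 0.05. The fit was tested on simulated data. Figures used matplotlib 3.10.9 in python 3.11.15. Alternatives covered scaling, floor, filter, prior, the array number as a block, the groups fitted and each array left out. The arrays numbered 3 were left out together, and steps compared between muscles, after seeing the data.

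The members and gene lists were chosen with earlier results of these data known. All member probe sets are described, with up to 4 called genes of each list by size of difference and the 5 genes of most similar course.

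Same-numbered EOM and leg arrays deviated together at day 7 (correlations 0.168, 0.131 and 0.296), day 14 (0.116, 0.106 and 0.165) and day 21 (0.101, 0.153 and 0.369), and at days 0, 28 and 45 at -0.095 to 0.255. No comparison was made with same-numbered arrays of other ages, so whether the numbers pair arrays of an age was not tested. The labels do not state a pairing, and the main fit has no block.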

Additional observations from a re-analysis of the deposited data

Results flagged for a closer look

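For Pdk4 the difference between EOM and leg varied with age by the moderated F test over all 6 ages (limma adjusted p = 0.0332), which is why it is singled out. EOM was lower by -3.09 ± 0.61 at day 0 and by -2.42 ± 0.61 at day 45. The groups did not overlap at either age, as on 8.78% and 9.07% of probe sets. Between these ages the differences were 0.27, -0.55, -0.045 and -0.00, each with a standard error of 0.61. Neither the change from day 0 to day 45 nor the last step differed between the muscles by a test of its own (adjusted p = 0.825 and 0.496). The adjusted p of the F test ran from 0.0137 to 0.0789 over the fits that left out 1 array each.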

How the results depend on the processing

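Of 155 member results for each setting, 148 kept their side of the threshold with arrays scaled to the same median, 151 under quantile normalization, 154 with either other floor, 155 with log2(value + 100), 153 without the filter, 153 without a trend in the prior, 146 with the replicate block (9 more passed), 141 without the arrays numbered 3 (3 lost, 11 gained) and 140 of 145 with only the groups compared. No called difference reversed, while uncalled ones changed sign in 8 results with median scaling, 5 under quantile normalization, 1 with the floor at the 30th percentile, 18 without the arrays numbered 3 and 0 under the other settings listed. Scaling to the same median moved the median of all probe sets by up to 0.13 log2 units.

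For Pdk4, EOM against leg at day 45 lost its call with only the groups compared (-2.42, adjusted p = 0.0668) and ran from -2.89 to -1.81 over the arrays left out in turn. Its interaction with age had an adjusted p of 0.0556 with the floor at the 30th percentile, 0.083 without the filter and 0.0518 without the trend, and from 0.0137 to 0.0789 with each array left out. EOM at days 7 and 14 against days 28 and 45 passed without the arrays numbered 3 (-0.84, adjusted p = 0.0396). For Pdk2 on U10357_g_at, without the arrays numbered 3 the differences at day 7 (-0.69), at day 45 (-0.65), over the ages (-0.31) and of the changes from day 0 to day 45 (-0.90) passed. With the replicate block its differences at day 45 (-0.59, adjusted p = 0.033) and over the ages (-0.20, adjusted p = 0.0372) passed, the latter also with median scaling (-0.29), and it ran from -0.27 to -0.17 with each array left out. For Ucp3 on AF035943_at the difference at day 45 was -0.55 without the arrays numbered 3, -0.999 with only the groups compared, and -1.19 to -0.71 with each array left out, and its average over the ages was -0.24 without the arrays numbered 3. The EOM change from day 0 to day 45 passed at 0.72 with median scaling, 0.80 under quantile normalization, 0.60 with the replicate block and 0.92 without the arrays numbered 3, and ran from 0.41 to 0.89. The F test over EOM ages gave adjusted p = 0.0163 and 0.0115 under median scaling and quantile normalization. The cause of these changes was not tested. The 9 results that passed with the replicate block are given here or in the report, and it changed no call between muscles at days 7, 14 and 21. Signal near the floor limits Pdk4 in EOM at day 0. Pdk2 on U10357_g_at read among the brightest 5% of values on 10 arrays from day 21 on, and whether its signal was compressed there was not tested.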

Other observations

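The arrays numbered 3 often read low, being the lowest of their group in 8 or more of 12 groups for 14.4% of probe sets. Being the lowest in nearly every group was rarer. In 57 of 6672 probe sets these arrays were the lowest of their group in 11 or 12 of the 12 groups, and 41 of the 57 carry 1 symbol. Pdk4 ranked 20 of 6672 by its mean deviation there (-0.716). Beside it stood Ptms (-1.12), Atp1b2, a subunit of the sodium pump (-1.02), Ptpn23 (-0.86), Socs2, an inhibitor of cytokine and growth hormone signalling (-0.76), and Cat, the catalase (-0.67), chosen after their values were seen. Each value is the mean over 12 groups of the log2 deviation of the third array.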
